A study of Mus musculus with 8 samples.

Results

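The 10 genes Notch1, Notch3, Hes1, Dtx1, Ptcra, Rag1, Rag2, Dntt, Bcl11b and Tcf12, which belong to the program of developing thymocytes, were followed through stimulated EL4 cells. EL4 is a mouse T cell lymphoma line. The 10 genes were picked by symbol from 54146 genes with values, and 6 of them (Notch1, Hes1, Ptcra, Dntt, Bcl11b and Tcf12) passed the filter on low counts, as did 14791 genes in all. RNA-seq was done on 4 EL4 lines with 2 libraries each. GFP + Plum carried the control fluorescent proteins only, T-bet + Plum carried FLAG-tagged T-bet, GFP + GATA3 carried HA-tagged GATA3, and T-bet + GATA3 carried both factors, each expressed constitutively. Every line was stimulated with the phorbol ester PMA at 50 ng/ml and ionomycin at 1 μM for 4 h, so no unstimulated level was measured. T-bet is the factor that directs TH1 cells, and GATA3 directs TH2 cells and is also needed in the thymus. The study defines biological replicates as harvests of the same line on different days, so the p-values measure the spread between harvests and not between independently made lines. Whether a line was a single clone is not given in the sources used here.

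In the thymus, Notch receptors bound by ligands on stromal cells release an intracellular domain that joins the DNA-binding protein RBPJ and switches on Hes1, Dtx1 and Ptcra. Ptcra encodes the invariant chain that pairs with a new TCR beta chain, and the RAG1 and RAG2 recombinase with the polymerase TdT, the product of Dntt, assembles and diversifies the receptor genes. The E proteins HEB (Tcf12) and E2A (Tcf3) drive much of this program, and Bcl11b holds cells to the T lineage.

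In these libraries the program was uneven. Tcf12, Bcl11b and Dntt were transcribed at 1.44 to 53.3 TPM (the transcript level of kallisto, scaled by transcript length and library total), whereas Notch1, Notch3, Hes1, Dtx1, Ptcra and the recombinase genes gave few or no counts. With FLAG-T-bet, Tcf12 fell to 27.5 ± 5.18 TPM (SD, n = 4) from 45.8 ± 5.37 TPM (SD, n = 4), and it was the only one of the 6 tested genes called at a false discovery rate (FDR) of at most 0.05, where 15.2% of all tested genes were called. With HA-GATA3 none of the 6 was called, and the fitted difference of Dntt, a log2 fold change (FC) of 1.71 with a standard error (SE) of 0.55, was 0.79 without T-bet + GATA3 replicate 1.

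The label check came first. Tbx21, which encodes T-bet, was between 52.4 and 70.2 TPM in the 4 libraries with FLAG-T-bet and between 0.755 and 1.71 TPM in the other 4. Gata3 was at 263 and 300 TPM in GFP + GATA3, at 164 and 138 TPM in T-bet + GATA3 and between 11.4 and 27.6 TPM in the other 4. The T-bet effect on Gata3 was called (log2 FC -0.67, FDR = 0.0174 by edgeR). Comparisons of lines with and without FLAG-T-bet, and those that involve both factors, therefore set unlike Gata3 levels side by side. Mean Gata3 was 15.9 TPM in T-bet + Plum and 26.2 TPM in GFP + Plum. The part of this in the results was not tested. Total estimated counts ran from 8038284 (T-bet + Plum replicate 1) to 16003190 (GFP + Plum replicate 2), and 3 counts, taken as the limit that a count of 0 allows, corresponded to 0.187 to 0.373 CPM (counts scaled to the library total) by library. This limit covers counting error only. T cell identity was plain, as 7 of 8 T cell markers were at 1 TPM or more in every library, with a summed level of 561 to 912 TPM. The exception was Cd247, the CD3 zeta chain, at 0 to 0.511 TPM. The 6 B cell, 5 myeloid, 3 erythroid and 5 thymic epithelium markers were below 1 TPM in every library. Below that level the summed myeloid markers were at 0.123 to 0.21 TPM with FLAG-T-bet and 0.742 to 0.891 TPM without, of which Lyz2 made up 0.0567 to 0.116 and 0.522 to 0.689 TPM. Among NK and fibroblast markers, 2 genes exceeded this level: Klre1 at 4.25 to 9.61 TPM with FLAG-T-bet and 0.0817 to 0.142 TPM without, and Pdgfra at 0.554 to 1.4 TPM with and 3.32 to 6.65 TPM without. The part of these genes in the differences below was not tested.

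**Figure D1:**
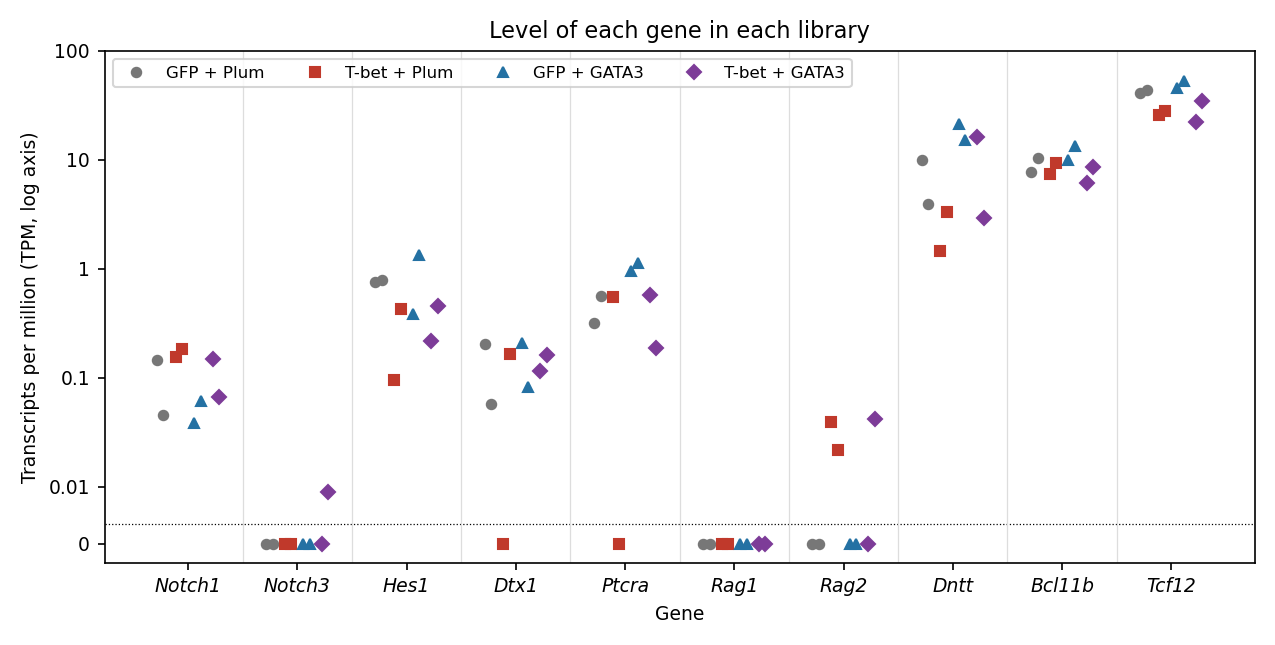
TPM of the 10 genes (log axis, values of 0 drawn below the dotted line) in each of the 8 libraries, with 2 points per line. Tcf12 sits between 22.1 and 53.3 TPM, Bcl11b between 6.12 and 13.5 TPM, Dntt between 1.44 and 21.2 TPM, and Rag1 at 0 in every library.

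The 10 genes differed widely in level. Ranked by mean TPM in GFP + Plum among the tested genes, Tcf12 lay at the 80.4th percentile, Bcl11b at 48.6 and Dntt at 43.8, whereas Hes1 lay at 15.3, Ptcra at 9.47 and Notch1 at 1.41. Over all 8 libraries the mean TPM fell in the order Tcf12 (36.7 ± 11), Dntt (9.26 ± 7.45), Bcl11b (9.14 ± 2.24), Hes1 (0.56 ± 0.398), Ptcra (0.535 ± 0.377), Dtx1 (0.124 ± 0.0738), Notch1 (0.105 ± 0.0578), Rag2 (0.0129 ± 0.0187) and Notch3 (0.0011 ± 0.00313), each with the SD over 8 libraries, and Rag1 was last with no count. Dntt and Bcl11b overlapped in range and lay above the 7 genes after them. Among those 7 each gene overlapped in range with the next, so the order of neighbours is not resolved, nor is that of Dntt and Bcl11b. Tcf12 lay above every other of the 10 genes in each library.

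The receptor Notch1 (chromosome 2 of GRCm38, 26457903 to 26516663) was barely transcribed. Its TPM was 0.144 and 0.0459 in GFP + Plum, 0.154 and 0.185 in T-bet + Plum, 0.0382 and 0.0613 in GFP + GATA3, and 0.147 and 0.067 in T-bet + GATA3. These values rest on 2 to 13 estimated counts per library, and the groups overlapped. The T-bet effect over both GATA3 states, that is the mean of the T-bet differences without and with HA-GATA3, had a log2 FC of 1.08 (SE 0.57, FDR = 0.26 by edgeR). This effect was 1.54 without GFP + GATA3 replicate 2 and 0.52 without T-bet + GATA3 replicate 1. kallisto placed part of the 65 Notch1 counts on Notch1-205, a transcript annotated as retaining an intron, which held up to 72.7% of the gene's TPM in a line. Notch3, a receptor that is abundant at the pre-TCR stage, had a single count in the 8 libraries, in T-bet + GATA3 replicate 2.

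The Notch targets were also low. Hes1, a transcriptional repressor (chromosome 16, 30064384 to 30067796), was at 0.751 and 0.793 TPM in GFP + Plum, 0.0944 and 0.429 in T-bet + Plum, 0.388 and 1.35 in GFP + GATA3, and 0.218 and 0.455 in T-bet + GATA3. The libraries with FLAG-T-bet were mostly lower, but GFP + GATA3 replicate 1 lay among them. The T-bet effect had a log2 FC of -1.23 (SE 0.51, FDR = 0.156 by edgeR), and it did not pass the threshold, although its unadjusted p was below 0.05. This effect was -1.91 without T-bet + Plum replicate 2 and -0.73 without GFP + GATA3 replicate 2. Dtx1, which encodes the ubiquitin ligase Deltex, had 0 to 5 counts per library and did not pass the filter. Dtx1-206, a retained intron, was the only transcript to which kallisto assigned at least 10% of its TPM in any line.

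Ptcra, the pre-TCR alpha chain (chromosome 17, 46755663 to 46763712), was low as well. It was at 0.318 and 0.566 TPM in GFP + Plum, 0.549 and 0 in T-bet + Plum, 0.954 and 1.14 in GFP + GATA3, and 0.572 and 0.187 in T-bet + GATA3. Both GFP + GATA3 libraries, with 11 and 19 counts, lay above the other 6, which had 0 to 11 counts. Neither pooled effect passed the threshold, with a log2 FC of -1.18 (SE 0.78, FDR = 0.372) for T-bet and 0.99 (SE 0.79, FDR = 1) for GATA3. Both values rest on the T-bet + Plum libraries, as they were -3.58 and 3.40 without replicate 1 and -0.52 and 0.34 without replicate 2 of that line.

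No recombinase transcript was measurable. Rag1 (chromosome 2, 101638282 to 101649501) had 0 of 105056545 counts over the 8 libraries, which allows a level of up to 0.0286 CPM over the whole set. Rag2, its neighbour (chromosome 2, 101624718 to 101632529), had 1 count in each T-bet + Plum library, 2 in T-bet + GATA3 replicate 2 and 0 in the other 5. These counts are within the limit that a count of 0 allows in a library, so no fold is given. At this depth a difference between the lines was not detectable for Rag1, Rag2, Notch3 or Dtx1.

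Dntt was the exception among the recombination genes. The polymerase TdT that it encodes adds nucleotides without a template at the joins of receptor gene segments. Its level (ENSMUSG00000025014.12, chromosome 19, 41029275 to 41059525) was 10 and 3.95 TPM in GFP + Plum, 1.44 and 3.31 in T-bet + Plum, 21.2 and 15.1 in GFP + GATA3, and 16.1 and 2.95 in T-bet + GATA3. The 2 replicates of T-bet + GATA3 differed by more than 5 times, with 322 and 84 counts. Both GFP + GATA3 libraries lay above both GFP + Plum libraries, and both T-bet + Plum libraries lay below them, while T-bet + GATA3 spread across the range.

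The fitted GATA3 effect on Dntt over both T-bet states was a log2 FC of 1.71 (SE 0.55, FDR = 0.715 by edgeR). With FLAG-T-bet present the log2 FC of HA-GATA3 on Dntt was 2.06 (SE 0.82, FDR = 1), and in GFP + GATA3 versus GFP + Plum it was 1.35 (SE 0.74, FDR = 1). The T-bet effect was a log2 FC of -1.06 (SE 0.55, FDR = 0.248). None of these passed the FDR threshold. Without T-bet + GATA3 replicate 1 the T-bet effect was -1.99, the GATA3 effect was 0.79 and that with FLAG-T-bet present was 0.24. The T-bet effect ran from -1.99 to -0.68 over the 8 fits that each leave out a library. Over the same fits the GATA3 effect ran from 0.79 to 2.11 and that with FLAG-T-bet present from 0.24 to 2.86. The GATA3 value in GFP + GATA3 versus GFP + Plum ran from 0.88 to 2.05. Without the filter on low counts both pooled effects were called, so the calls and the sizes on Dntt depended on these choices.

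Dntt is made in forms that differ by an exon, and both were assigned reads. In Gencode M21, Dntt-201 has 12 exons and Dntt-202 lacks its exon 11, a coding exon of 60 bases at chr19:41058567-41058626 on the plus strand of GRCm38, which adds 20 residues to TdT. The exon is shown because it is a coding exon that Dntt-202 lacks in this annotation. The files hold earlier versions of both transcripts, of 2128 and 2068 bases, whose lengths differ from those annotated.
Dntt exon 11: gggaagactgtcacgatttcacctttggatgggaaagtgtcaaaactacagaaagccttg

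Dntt-202 led in every library. It was at 7.43 and 2.92 TPM in GFP + Plum, 1.03 and 3.31 in T-bet + Plum, 16.8 and 11 in GFP + GATA3, and 8.49 and 2.36 in T-bet + GATA3. Dntt-201 held 25.8% and 26% of the gene's TPM in GFP + Plum, 20.6% and 27.5% in GFP + GATA3, 47.3% and 20% in T-bet + GATA3, and 28.9% and 0% in T-bet + Plum. The shares of GFP + Plum and GFP + GATA3 thus overlapped, although the total differed. T-bet + GATA3 replicate 1 stood apart with the highest share. kallisto divides reads that match both forms, so these shares are estimates without an interval.

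**Figure D2:**
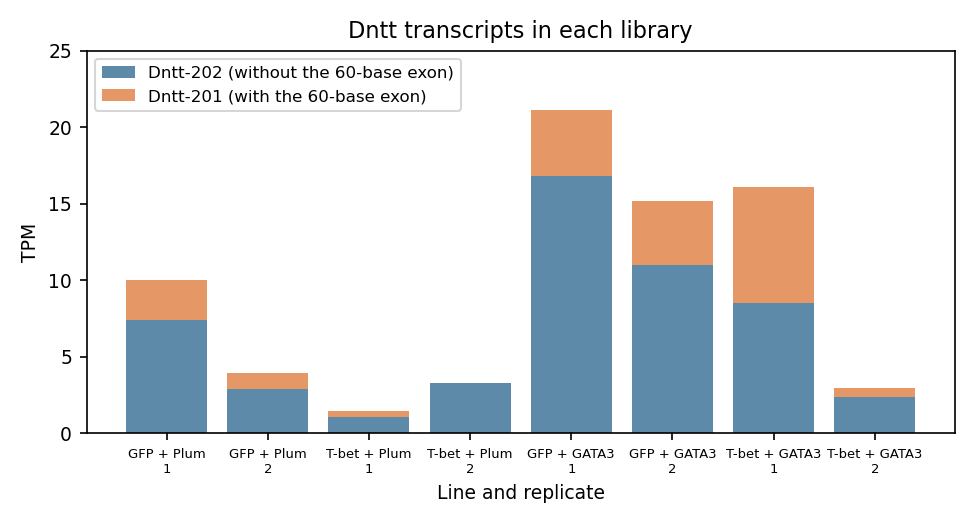
TPM of Dntt-202 (lower part of each bar) and Dntt-201 (upper part) in each library. GFP + GATA3 reaches 15.1 and 21.2 TPM, and the libraries of T-bet + GATA3 lie far apart at 16.1 and 2.95 TPM.

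The promoter of Dntt was searched for the letters bound by GATA factors, because Dntt was the gene with an unadjusted p below 0.05 for the GATA3 effect, although it was not called. The window of RefSeq (GRCm38.p6, chr19:41029025-41029324, plus strand) runs from 250 bases before the start of the gene to 50 after it, and capitals mark AGATAA.
Dntt promoter: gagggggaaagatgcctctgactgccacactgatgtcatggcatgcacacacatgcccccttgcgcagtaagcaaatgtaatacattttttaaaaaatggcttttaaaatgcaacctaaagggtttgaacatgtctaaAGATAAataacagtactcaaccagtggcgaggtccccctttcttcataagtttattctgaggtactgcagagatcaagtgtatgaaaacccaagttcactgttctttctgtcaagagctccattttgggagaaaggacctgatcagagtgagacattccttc
AGATAA or its reverse complement TTATCT occurs in 11.2% of 32851 mouse promoter windows of this length, and among the 11 windows of the 9 matched genes it occurs in that of Dntt alone. Hes1 had no window in the table.

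Bcl11b, the zinc finger factor of T lineage commitment (chromosome 12, 107910403 to 108003602), was called in no comparison. It was at 7.78 and 10.4 TPM in GFP + Plum, 7.46 and 9.24 in T-bet + Plum, 10 and 13.5 in GFP + GATA3, and 6.12 and 8.66 in T-bet + GATA3. Both GFP + GATA3 libraries lay above the 4 libraries with FLAG-T-bet, and the GFP + Plum libraries overlapped with both groups. The pooled log2 FC was -0.21 (SE 0.13, FDR = 0.325 by edgeR) for T-bet and 0.11 (SE 0.13, FDR = 1) for GATA3. The longest transcript, Bcl11b-201, held up to 86% of its TPM in a line.

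Tcf12, which encodes the E protein HEB (ENSMUSG00000032228.16, chromosome 9 of GRCm38, 71842688 to 72111871, minus strand), was the called gene. It was at 40.8 and 43.7 TPM in GFP + Plum, 25.5 and 28.1 in T-bet + Plum, 45.6 and 53.3 in GFP + GATA3, and 22.1 and 34.4 in T-bet + GATA3. Every library with FLAG-T-bet lay below every library without it, in TPM and in CPM, a pattern found in CPM for 10.2% of the tested genes. In bulk RNA, fewer cells that express a gene and less RNA per cell cannot be told apart.

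The T-bet effect on Tcf12 over both GATA3 states was a log2 FC of -0.58 (SE 0.098, FDR = 0.00642 by edgeR's quasi-likelihood test), that is 1.49-fold lower. Tcf12 was thus 1 of 6 tested genes called in this comparison, in which 15.2% of all tested genes were called, 6.61% with a lower level and 8.55% with a higher level. In T-bet + GATA3 versus GFP + GATA3 the log2 FC was -0.63 (SE 0.14, FDR = 0.0371), with 1 of 6 called against 5.77% of all tested genes, 2.05% of them lower. In T-bet + Plum versus GFP + Plum the log2 FC was -0.53 (SE 0.14, FDR = 0.0692). There 0 of 6 genes were called against 6.2% of all, 2.16% lower, with 1 at an unadjusted p below 0.05 and 1, Tcf12, called by DESeq2. With the replicate number as a block, edgeR called Tcf12 there as well (FDR = 0.0151).

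The call in T-bet + GATA3 versus GFP + GATA3 was lost without either GFP + GATA3 library, either T-bet + Plum library or T-bet + GATA3 replicate 1, with FDRs of 0.0352 to 0.274 by edgeR over the 8 fits that leave out a library. The pooled effect was called in each of these fits, at FDRs of 0.00701 to 0.0374. Its size was below the threshold of 1.5 that the study adds, so it is not called by that rule.

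The GATA3 comparisons called none of the 6 tested genes. In GFP + GATA3 versus GFP + Plum 0 were called by edgeR, 0 by DESeq2 and 0 at an unadjusted p below 0.05, where edgeR called 0.0203% of all tested genes. Between the T-bet + GATA3 and T-bet + Plum lines 0 were called by either tool, 1 (Dntt) had an unadjusted p below 0.05, and 0.0338% of all tested genes were called. For the GATA3 effect over both T-bet states the same counts were 0 by either tool and 1 (Dntt), against 0.0608% of all. For Tcf12 the GATA3 effect was a log2 FC of 0.18 (SE 0.098, FDR = 1). The interaction, the difference between the T-bet effects with and without HA-GATA3, called 0 of 6 by edgeR, 0 by DESeq2 and 0 at an unadjusted p below 0.05, against 0.0% of all tested genes by edgeR. The interaction on Tcf12 was a log2 FC of -0.10 (SE 0.20).

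**Figure D3:**
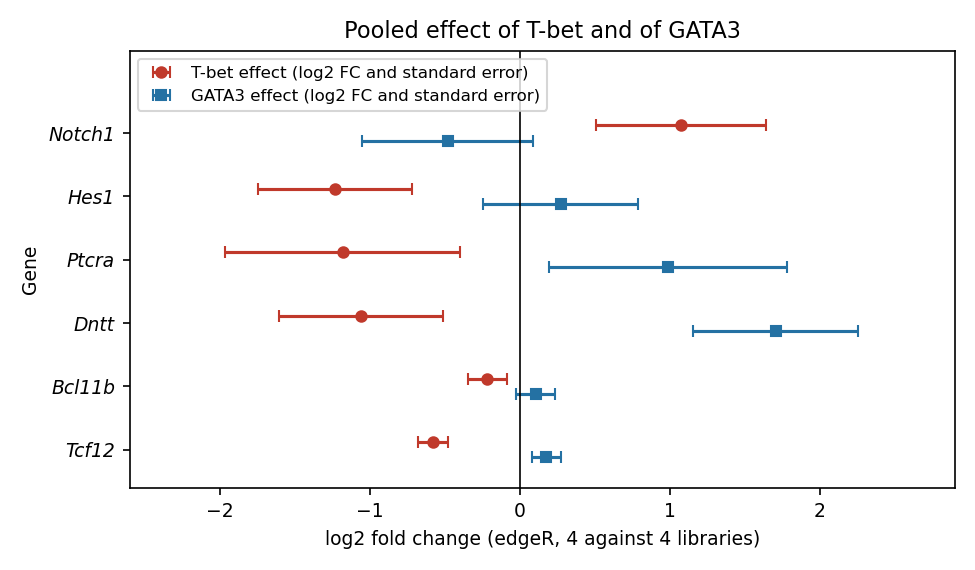
log2 FC with its SE for the 6 tested genes, for the T-bet effect (circles) and the GATA3 effect (squares), each over 4 against 4 libraries. Tcf12 has the smallest error (0.098), and the bars of the genes with few counts (Notch1, Hes1 and Ptcra) are the widest together with Dntt.

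Tcf12 has an outer start, from which full-length HEB is made, and an inner start 215425 bases downstream, from which a shorter form with its own first residues, known as HEBalt, is made. Tcf12-207 starts at the inner site and codes over 1608 bases against 2046 for Tcf12-201, the stop codon left out. Its own coding sequence at chr9:71895930-71895998, minus strand of GRCm38 (Gencode M21), is shown because it sets the shorter form apart.
Tcf12-207 first coding exon: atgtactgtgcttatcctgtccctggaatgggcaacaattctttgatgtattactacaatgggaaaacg

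The 4 transcripts with the inner start, Tcf12-207 among them, summed to 6.25 and 4.26 TPM in GFP + Plum, 3.65 and 4.02 in T-bet + Plum, 6.61 and 11 in GFP + GATA3, and 3.34 and 4.38 in T-bet + GATA3. They held 9.76% to 20.7% of the gene's TPM, with 12.7% to 15.1% in the libraries with FLAG-T-bet, inside the range of the others. The groups overlapped in this sum, since T-bet + GATA3 replicate 2 lay above GFP + Plum replicate 2. Tcf12-207 alone did not overlap, at 2.29 to 2.87 TPM with FLAG-T-bet and 2.93 to 5.48 TPM without, a log2 ratio of -0.70 of the means, a pattern that 8.3% of all transcripts compared showed.

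Of the 2 most abundant transcripts, both from the outer start, the fall was assigned to Tcf12-221. It was at 12.3 and 12.6 TPM in GFP + Plum, 4.58 and 5.2 in T-bet + Plum, 20 and 16.8 in GFP + GATA3, and 5.07 and 10.9 in T-bet + GATA3. Every library with FLAG-T-bet lay below every library without, as did 8.3% of all 33202 transcripts with a mean of at least 1 TPM. The mean was 6.44 ± 2.99 TPM with and 15.4 ± 3.68 TPM without (SD, n = 4 each), a log2 ratio of -1.26.

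Tcf12-201 did not show this separation. It was at 9.58 and 10.3 TPM in GFP + Plum, 9.24 and 9.52 in T-bet + Plum, 6.89 and 12.3 in GFP + GATA3, and 7.65 and 7.69 in T-bet + GATA3, with a log2 ratio of -0.19. In Gencode M21 both transcripts have 20 exons and the same coding exons. Tcf12-221 has a first exon that starts 170 bases later, an exon 2 that starts 10 bases later and a 3′ end that is 455 bases shorter. The split between them rests on these bases alone, it is an estimate of kallisto, and the difference between the transcripts was not tested. Summed, the pair was at 15 ± 2.55 TPM with and 25.2 ± 3.36 TPM without FLAG-T-bet (SD, n = 4 each). The other 15 transcripts, which include Tcf12-204 and Tcf12-211, annotated as subject to nonsense-mediated decay, summed to 8.7 ± 2.25 and 13.6 ± 1.99 TPM.

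**Figure D4:**
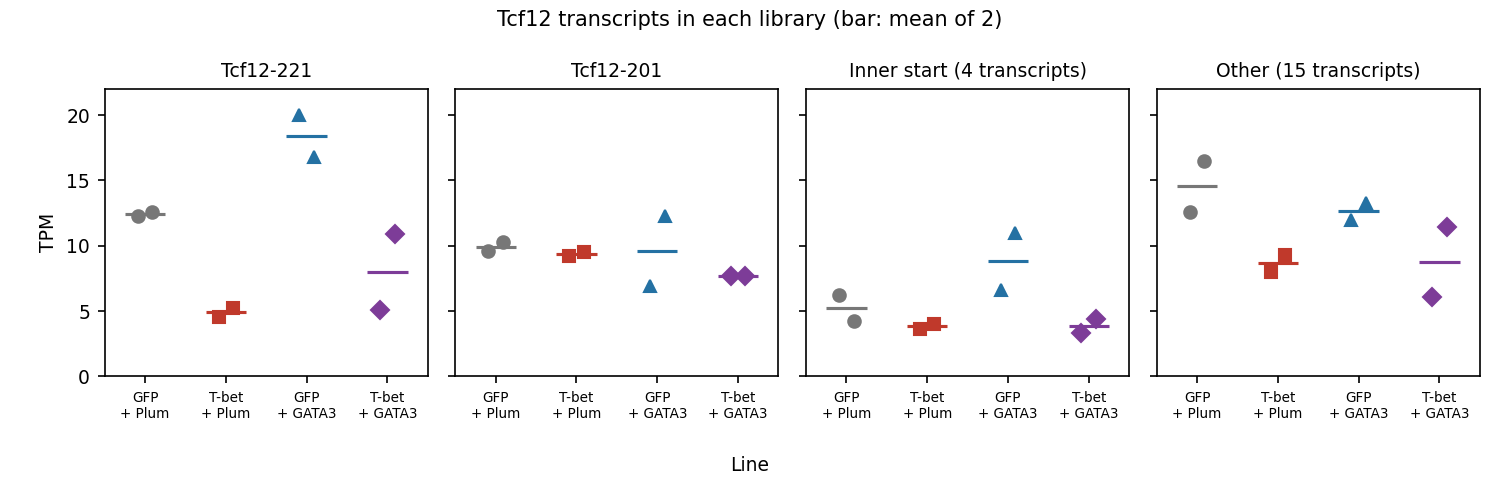
TPM of Tcf12-221, Tcf12-201, the 4 transcripts with the inner start and the other 15 transcripts in each library, with the mean of each line as a bar. Tcf12-221 lies at 4.58 to 10.9 TPM with FLAG-T-bet and at 12.3 to 20 TPM without, whereas the points of Tcf12-201 overlap.

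The outer promoter is shown because Tcf12 is the gene that was called. Its RefSeq window (GRCm38.p6, chr9:72111770-72112069, minus strand) was searched for the T-box letters GGTGTGA (reverse complement TCACACC), for AGATAA, for the RBPJ letters GTGGGAA (reverse complement TTCCCAC) and for the E-box CAGCTG, which is its own reverse complement. Capitals mark the match.
Tcf12 outer promoter: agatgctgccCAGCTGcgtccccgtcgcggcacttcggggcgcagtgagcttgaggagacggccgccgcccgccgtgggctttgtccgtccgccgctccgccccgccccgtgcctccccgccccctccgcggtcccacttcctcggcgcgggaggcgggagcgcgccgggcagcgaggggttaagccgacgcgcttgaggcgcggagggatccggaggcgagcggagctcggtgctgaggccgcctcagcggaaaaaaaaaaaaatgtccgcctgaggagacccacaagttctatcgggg
It holds CAGCTG 240 bases before the start, letters found in 16.3% of all windows and, among the 10 genes, also in those of Ptcra and Rag1. GGTGTGA, found in 3.98% of all windows, is in none of the 11 windows of the 9 genes, and GTGGGAA, found in 6.38%, is in that of Rag1. A match describes letters and not a bound site, and the absence of these letters says nothing about binding elsewhere.

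The tested partners of HEB were lower as well. Of 9 listed E proteins, Id proteins (which bind E proteins and block them from DNA) and partner factors, 4 passed the filter. With FLAG-T-bet all 4 fell and 0 rose, where 6.61% of all tested genes fell and 8.55% rose. Their median log2 FC was -1.10 against 0.02 for all tested genes. The list was chosen with earlier results of these data known, so these counts are a description and not a test. Tcf3, which encodes E2A, was at 13.1 to 15.7 TPM with FLAG-T-bet and 23.9 to 26 TPM without (log2 FC -0.61, SE 0.088, FDR = 0.00294). Id2 was at 40.1 to 71.8 TPM with and 102 to 180 TPM without (log2 FC -1.36, SE 0.21, FDR = 0.00362). Id3 was at 12.4 to 20 TPM with and 26.7 to 42.5 TPM without (log2 FC -0.85, SE 0.14, FDR = 0.00587).

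Both the activators (Tcf12 and Tcf3) and the inhibitors (Id2 and Id3) were therefore lower, with no overlap between libraries with and without FLAG-T-bet. In CPM, 10.2% of all tested genes were lower in every library with FLAG-T-bet than in every library without. Lmo2, a bridging factor of early progenitors and a T cell oncogene, was at 0.362 to 0.592 TPM with and 1.12 to 3.86 TPM without (log2 FC -2.27, SE 0.34, FDR = 0.00346). Its difference rests on few counts, 214 in all and at most 66 in a library. The 5 genes that did not pass the filter were Tcf4, Id1, Id4, Lyl1 and Tal1. The 4 tested genes of the list were called in each of the 13 other fits run for them, with FDRs of at most 0.0302. By the rule that adds a log2 FC above 1.5 in size, Lmo2 alone stayed called, and Tcf3, Id2 and Id3 did not. For GATA3, 0 of the 4 were called by edgeR, 0 by DESeq2 and 0 at an unadjusted p below 0.05.

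**Figure D5:**
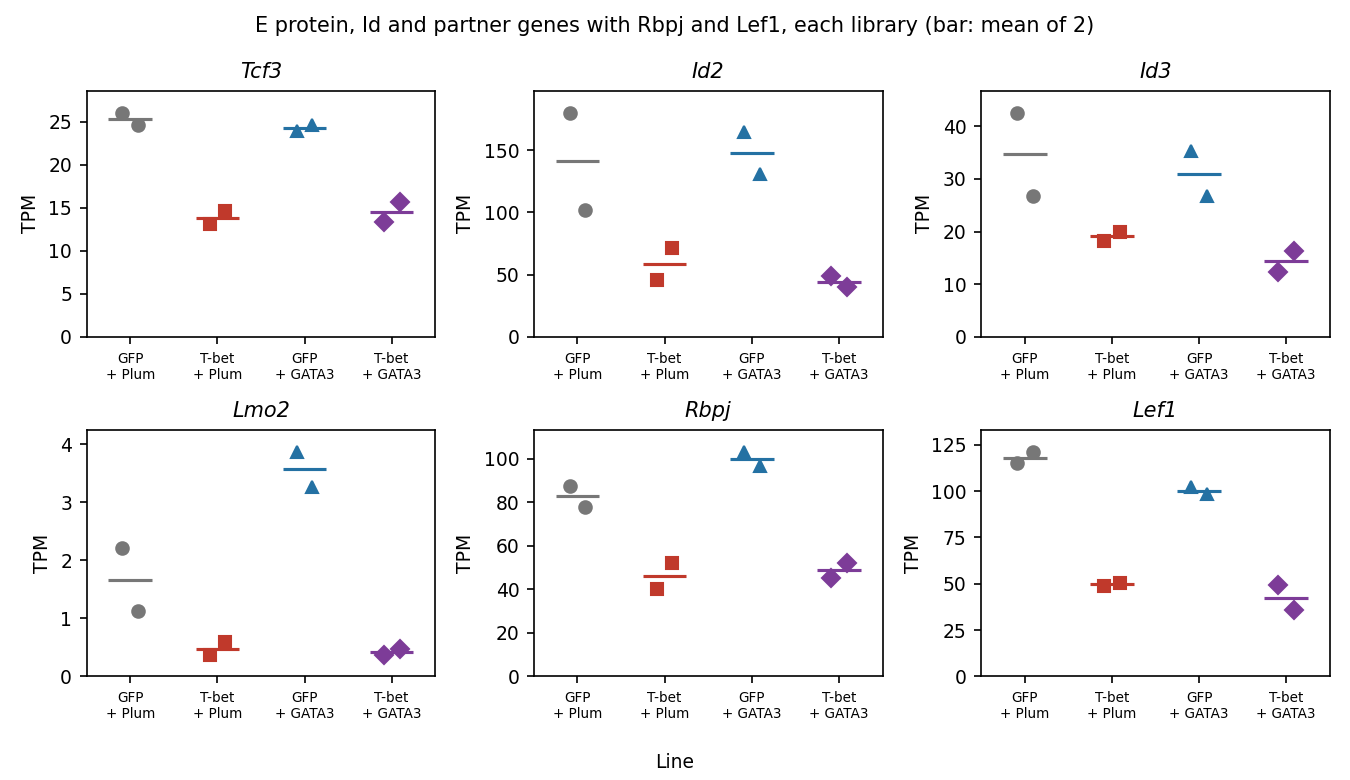
TPM in each library of the 4 tested genes of the E protein list with Rbpj and Lef1, with the mean of each line as a bar. In each panel the 4 libraries with FLAG-T-bet lie below the 4 without, as for Rbpj at 40.3 to 52.3 against 78 to 103 TPM. In CPM 10.2% of all tested genes showed this pattern. Tcf7, a relative of Lef1, is not drawn. Its libraries overlapped, at 25.8 to 39.4 TPM with FLAG-T-bet and 16.7 to 41.2 TPM without.

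Of 38 other Notch pathway genes, 28 were tested, and with FLAG-T-bet 6 rose, 3 fell and 19 were not called (median log2 FC -0.08). Over all tested genes this comparison had 8.55% higher and 6.61% lower, and these shares are the background of each list. Fewer of the 28 genes rose when any library but GFP + Plum replicate 2 was left out. Notch2, a receptor that is not among the 10 genes, was at 6.82 to 9.95 TPM over the 8 libraries and was not called (log2 FC -0.09, FDR = 0.669). Rbpj, the DNA-binding partner of the Notch intracellular domain, was well transcribed and fell, from 91.2 ± 10.8 to 47.4 ± 5.76 TPM (SD, n = 4 each, log2 FC -0.77, SE 0.085, FDR = 0.000821). Maml3, a coactivator of the complex, fell from 6.39 ± 1.26 to 2.68 ± 0.804 TPM (log2 FC -1.23, FDR = 0.00756). Mfng, a glycosyltransferase that modifies Notch receptors, rose from 32.4 ± 4.08 to 62.4 ± 17.1 TPM (log2 FC 1.01, FDR = 0.00662).

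Maml2, a relative of Maml3, rose from a lower level of 0.305 ± 0.102 to 0.641 ± 0.174 TPM (log2 FC 1.41, FDR = 0.00906), so the 2 coactivators differed in direction. The 10 genes that did not pass the filter included the ligands Dll1, Dll3 and Dll4 and the targets Hes5, Hey1, Hey2, Heyl and Nrarp. These low values stand beside those of Hes1, Dtx1 and Notch3. Other genes of these families passed the filter. The ligand gene Jag1 rose (log2 FC 1.46, FDR = 0.00914 by edgeR) and Dtx4 fell (log2 FC -1.11, FDR = 0.0125). Jag2, Dtx2, Dtx3 and Hes6 were not called, with Hes6 at 3.13 to 7.01 TPM. For GATA3, 0 of the 28 were called by edgeR and 0 by DESeq2, with 1 at an unadjusted p below 0.05.

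The genes that join V(D)J breaks serve general DNA repair and were present without the recombinase. Nhej1 among them was low, at 0.465 to 0.806 TPM and at most 11 counts in a library. Of 13 listed genes 12 were found by symbol (Paxx was not), and all 12 were tested. With FLAG-T-bet 3 rose, 2 fell and 7 were not called (median log2 FC 0.25). Xrcc4, the ligase partner, rose from 8.5 ± 1.88 to 11.6 ± 1.56 TPM (log2 FC 0.72, FDR = 0.00931). Prkdc, the DNA-dependent protein kinase, rose from 2.39 ± 0.275 to 3.02 ± 0.465 TPM (log2 FC 0.46, FDR = 0.0204).

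Atm, the kinase that senses breaks, had a log2 FC of 0.50 (FDR = 0.0292). Libraries with and without FLAG-T-bet overlapped in TPM for Xrcc4, Prkdc and Atm. Hmgb1, a DNA-bending cofactor of the recombinase, fell from 160 ± 23.2 to 96.4 ± 18 TPM (log2 FC -0.62, FDR = 0.0225). These calls were not stable, since leaving out GFP + GATA3 replicate 2 left 0 that rose and 0 that fell. For GATA3, 0 of the 12 were called by edgeR, 0 by DESeq2 and 0 at an unadjusted p below 0.05.

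The genes whose log2 CPM over the 8 libraries was most like that of each of 3 members were then listed, as a description of libraries that share a line and a depth. For Tcf12 these were Pag1, an adaptor that recruits the kinase Csk (Pearson r = 0.995), the histone demethylase homologue Jmjd1c (r = 0.993) and Nab1, a corepressor of EGR factors (r = 0.991), each lower with FLAG-T-bet (log2 FC -0.70, -0.90 and -0.82). For Dntt they were the deubiquitinase gene Otud3 (r = 0.99), the phosphatase subunit gene Ppp1r15b (r = 0.961) and the kinase gene Camk2b (r = 0.952). For Hes1 they were Eif5a2 (r = 0.978), N4bp2l1 (r = 0.975) and RP24-531B21.1 (r = 0.972), at means of 3.12 to 5.49 CPM.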

How the data were processed

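RNA was measured in 8 libraries of 4 EL4 lines. Reads were trimmed by the authors (FastQC, Trim Galore) and assigned to Gencode transcripts with kallisto, whose version is not given in the sources used here. The authors deposited, for each library and 136535 transcripts, estimated counts without normalization and TPM, which share 1 total across libraries. The files are labelled Gencode M18 and mm10. The sources name both poly(A) selection and ribosomal RNA depletion, and the study's legend gives more replicates than the 2 libraries per line used here.

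Gene counts were obtained by adding and rounding the estimated counts. They were tested with edgeR 4.0.16 (R 4.3.3), with TMM, filterByExpr, a quasi-likelihood fit of the 4 lines and Benjamini-Hochberg adjustment over 14791 genes, at an FDR of at most 0.05. The approximate SE comes from the log2 FC and F. Scripts (Python 3.11.15) were tested on simulated counts. Alternatives were DESeq2 1.42.0, library size scaling, no filter, length offsets, a replicate block, a log2 FC above 1.5, fits of 2 lines alone and each library left out. Positions are from Gencode M21, whose versions of the Dntt and Notch3 transcripts are later than those of the files, and promoters from RefSeq. Named were the 10 genes, Tbx21, Gata3, Rbpj, Tcf3, Id2, Id3, Tcf7, Lef1, up to 4 called genes per list by FDR, transcripts with at least 10% of a gene's TPM in a line, and the 3 genes most alike for the 3 members with the smallest p. Marker genes, Notch2, Jag1, Jag2, Dtx2, Dtx3, Dtx4, Hes6 and untested list genes were named after their values were seen. The members and lists were chosen with earlier results of these data known. A gene that the rule for named genes picks is not reported here.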

Additional observations from a re-analysis of the deposited data

How the results depend on the processing

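The T-bet effect on Tcf12 over both GATA3 states kept its direction in every alternative and its call in all but the rule that adds a log2 FC above 1.5, under which 0 of the 6 genes were called in that comparison and 0 between T-bet + GATA3 and GFP + GATA3. Without the filter on low counts, Dntt was called in 6 comparisons, which gave 2 called genes (with Tcf12) in T-bet + Plum versus GFP + Plum, 2 between T-bet + GATA3 and GFP + GATA3 and 2 for the T-bet effect, and 1 in GFP + GATA3 versus GFP + Plum, 1 between T-bet + GATA3 and T-bet + Plum and 1 for the GATA3 effect. In T-bet + Plum versus GFP + Plum, Tcf12 was called by DESeq2 (1 gene). Between T-bet + GATA3 and GFP + GATA3, 0 genes were called with transcript length offsets and 0 when just these 4 libraries were fitted. The causes were not tested.

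Leaving out each library gave 0 to 1 called genes between T-bet + GATA3 and GFP + GATA3 and 1 to 2 for the T-bet effect, where Dntt was the added gene without T-bet + GATA3 replicate 1. It turned the direction of Hes1 for the GATA3 effect (log2 FC -0.23 to 0.96, below 0 without replicate 2 of GFP + GATA3 at -0.23 or of T-bet + GATA3 at -0.0073), of Tcf12 between T-bet + GATA3 and T-bet + Plum (-0.0254 to 0.25, lowest without T-bet + GATA3 replicate 2) and of Dntt between T-bet + GATA3 and GFP + GATA3 (-2.54 to 0.0762, highest without T-bet + GATA3 replicate 2). None of these was called.

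With the replicate number as a block, the call on Tcf12 extended to the comparison of T-bet + Plum with GFP + Plum, 1 gene in all (log2 FC -0.53, FDR = 0.0151 by edgeR), and no other call on the 6 genes changed. Deviations of same-numbered libraries correlated with r of 0.302, 0.249, 0.149, 0.139, 0.059 and -0.0455 over the pairs of lines. As not every pair correlated, the numbers were not taken to pair the libraries. Over all tested genes the block raised the calls from 917 to 1440 for T-bet + Plum against GFP + Plum. The calls rose from 854 to 1379 for T-bet + GATA3 against GFP + GATA3, from 2242 to 3063 for the T-bet effect and from 9 to 19 for the GATA3 effect.

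Over all tested genes the GATA3 effect called 9 genes, but 84 by DESeq2 and 373 without the filter, and the T-bet effect 2242, but 666 with the log2 FC rule. By DESeq2, without the filter and over libraries left out, GFP + GATA3 versus GFP + Plum called 55, 293 and 0 to 5 genes instead of 3 (0 without GFP + GATA3 replicate 2), T-bet + GATA3 against T-bet + Plum 37, 228 and 1 to 9 instead of 5 (1 without either T-bet + Plum library), and the interaction 14, 145 and 0 to 3 instead of 0 (3 without T-bet + GATA3 replicate 2). Leaving out a library lowered the counts behind the background shares to as few as 1229 for the T-bet effect (without GFP + GATA3 replicate 2), 268 of 917 for T-bet + Plum against GFP + Plum (without T-bet + Plum replicate 2) and 250 of 854 for T-bet + GATA3 against GFP + GATA3 (without GFP + GATA3 replicate 2). Uncalled effects on genes with few counts moved as well, as for Hes1 (T-bet effect -1.91 to -0.73) and Notch1 (0.52 to 1.54). Among the alternatives, the Notch list had 3 to 7 genes that rose and 2 to 4 that fell, and the V(D)J list 0 to 4 and 0 to 2. The V(D)J counts fell to 1 and 0 without T-bet + Plum replicate 1 or GFP + Plum replicate 2, and to 2 and 0 without GFP + GATA3 replicate 1 or T-bet + Plum replicate 2. The 1 to 22 counts behind Notch1 and Hes1 and the 2 libraries per line limit what could be detected. For Tcf12-221 the log2 ratio was -1.64 to -1.11 over libraries left out and -1.15 on estimated counts scaled to the library total, alternatives chosen after seeing the data.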

Other observations

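Among 20 other thymocyte transcription factors, 15 were tested, and with FLAG-T-bet 4 rose and 4 fell (median log2 FC 0.07), where 8.55% of all tested genes rose and 6.61% fell. The count that fell was 2 without GFP + Plum replicate 2, either T-bet + Plum library or either GFP + GATA3 library. Lef1, a partner of beta-catenin, fell from 109 ± 10.8 to 46.1 ± 6.87 TPM (SD, n = 4 each, log2 FC -1.13, FDR = 0.00138 by edgeR), whereas its relative Tcf7 had a log2 FC of 0.14 (FDR = 0.82). Gfi1, a transcriptional repressor, rose from 8.64 ± 3.28 to 22.1 ± 3.94 TPM (log2 FC 1.64, FDR = 0.00369). Runx1 rose from 4.98 ± 1.41 to 9.81 ± 1.74 TPM (log2 FC 1.23, FDR = 0.00436). For GATA3, 0 of the 15 were called by edgeR, 2 had an unadjusted p below 0.05 and 1, Ets1, was called by DESeq2.

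Of 22 thymocyte surface and signalling genes, 17 were tested, and with FLAG-T-bet 6 rose and 1 fell (median log2 FC 0.25). The adhesion receptor gene Cd2 rose from 2.01 ± 0.468 to 15.4 ± 4.29 TPM (log2 FC 3.01, SE 0.19, FDR = 5.28e-05). Cd5, a brake on TCR signalling, rose from 59.9 ± 11.9 to 121 ± 25.1 TPM (log2 FC 1.12, FDR = 0.000133). Themis, which is needed for positive selection, rose from 5.2 ± 0.559 to 16.6 ± 4.13 TPM (log2 FC 1.89, FDR = 0.000195). The TCR-proximal kinase gene Zap70 rose from 107 ± 11.3 to 160 ± 10.1 TPM (log2 FC 0.71, FDR = 0.000801). The gene that fell was Il7r, the IL-7 receptor alpha chain, from 11.5 ± 3.67 to 1.23 ± 1.3 TPM (log2 FC -3.19, SE 0.41, FDR = 0.00166), named after its values were seen. Cd8a, Cd8b1, Cd247, Kit and Cd24a did not pass the filter. For GATA3, 0 of the 17 were called by edgeR, 3 had an unadjusted p below 0.05, and Cd5 and Cd44 were called by DESeq2, which is 2 genes.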
